A study of Mus musculus with 12 samples.

Results

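The genes described here are 10 genes of bile acid synthesis, transport and sensing, followed through the livers of mice that lack Mcl1, an antiapoptotic gene of the Bcl2 family, in hepatocytes. They were chosen by symbol, with earlier results of these data known, and are Cyp7a1, Cyp8b1, Cyp27a1, Slc10a1, Abcb11, Abcc3, Abcc4, Slc51b, Nr1h4 and Nr0b2. They are 10 of the 40551 Ensembl genes counted, and all 10 were among the 15070 genes with enough counts to be tested. The 12 total RNA-seq libraries came from 12 livers, 3 of each genotype, and nothing beyond a liver of a given genotype is known of each sample. The genotypes are wild type (WT), Mcl1Δhep (Mcl1 KO in the sample labels), Sting1-/- (Sting1 KO) and Mcl1Δhep Sting1-/- (Mcl1 Sting1 DKO), with no treatment named for any group. In Mcl1Δhep mice, floxed Mcl1 is removed by a Cre driven by the albumin promoter, so cells of the liver other than hepatocytes are expected to keep the gene. The Sting1-/- mice lack Sting1, which passes on the signal of cytosolic DNA, in the whole animal, and the double mutant line was bred from both. The mice of the study were of both sexes. WT and Mcl1Δhep mice were 2 months old. The age behind the libraries of the Sting1-/- lines is not given beside them.

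Hepatocytes make bile acids from cholesterol, by a classical pathway that Cyp7a1 opens and by an alternative pathway that uses Cyp27a1, and Cyp8b1 sets how much of the product is cholic acid. They take bile acids up from the blood through Slc10a1, pump them into bile at the canalicular membrane through Abcb11, and can return them to blood at the basolateral membrane through Abcc3, Abcc4 and the heterodimer of Slc51a and Slc51b. Nr1h4 (FXR) is the nuclear receptor that senses bile acids, and Nr0b2 (SHP) is the corepressor that it induces and that restrains synthesis. In cholestatic liver, basolateral exporters are known to rise while uptake falls.

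The libraries held 28826367 to 45266387 counts on genes, and even the lowest member, Slc51b, had 11 to 146 counts in each. Levels are given as CPM, in which every library is brought to the same effective size by edgeR's TMM scaling. Mcl1 itself was at 90.2, 102 and 104 CPM in the WT livers and at 27.9, 34.0 and 25.0 CPM in the Mcl1Δhep livers, a fall of all 3 below WT. It was at 78.3, 90.1 and 77.0 CPM in the livers labelled Sting1-/- and at 18.1, 22.9 and 26.0 CPM in those labelled Mcl1Δhep Sting1-/-. Sting1 did not separate the Sting1-/- label from WT, with 2.11 to 2.53 CPM in WT livers and 1.16 to 2.70 CPM in the livers labelled Sting1-/-. It was higher in Mcl1Δhep livers, at 3.67 CPM or more in each (log2 fold change of 0.99 against WT, edgeR adjusted p = 0.0324), and all 3 lay above the livers labelled Mcl1Δhep Sting1-/-, at 1.90 to 2.53 CPM (log2 fold change of -1.05, adjusted p = 0.134). Counts over the whole gene cannot say whether the transcript is functional, so those groups are called by their label here. For the Sting1-/- line, the study reports the knockout by Western blot. It also reports that splenocytes of these mice failed to induce IRF3 phosphorylation after a STING agonist. Such protein data are not given beside these libraries. Mcl1Δhep replicate 3 alone carried acinar pancreas and skeletal muscle RNA, with 6429 and 1390 summed CPM over 7 marker genes each, against at most 0.0918 and 7.98 CPM in any other library. Y-linked genes were expressed in WT replicates 2 and 3 and in replicate 1 of the livers labelled Mcl1Δhep Sting1-/-, and in no other library, so genotype and Y-linked expression are partly confounded. Hepatocyte markers summed to between 132025 and 201446 CPM, and 1 of 10 was called lower in Mcl1Δhep against WT livers, beside 9.43% of all tested genes. In bulk liver, fewer cells of a type and less RNA per cell cannot be told apart.

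Promoter sequence was available from RefSeq (GRCm38.p6, 250 bases before to 50 bases after the start) for 8 of the 10 genes, all but Cyp7a1 and Abcc3. Stretches of 30 bases are shown for 5 genes that differ in their response below, written 5′ to 3′ along the gene, with the motif in capitals. Searched on both strands were the letters CAAGGNCA, to which LRH-1 (Nr5a2, an activator of Cyp8b1) binds, the nuclear receptor half-site AGGTCA, and the FXR type of inverted repeat, in which AGGNCA and its mirror copy TGNCCT stand 1 base apart. The inverted repeat can contain the half-site, as it does in Abcb11.
Cyp8b1 promoter, LRH-1 motif, minus strand of chr9:121916347-121916376: tgagcaaagtcCAAGGGCAggaacctttgc
Nr0b2 promoter, LRH-1 motif, plus strand of chr4:133553164-133553193: taaagtgatagCAAGGCCAcgtggagcttc
Abcb11 promoter, inverted repeat, minus strand of chr2:69342658-69342687: tggactttAGGCCATTGACCTataagcaaa
Slc10a1 promoter, half-site, minus strand of chr12:80968149-80968178: cggcaggcacagAGGTCAgaaaacttaagc
Slc51b promoter, half-site, minus strand of chr9:65422959-65422988: gtttgtcactggAGGTCAtgcattcgtggg
Motifs began 60 bases before the start in Cyp8b1, 201 in Nr0b2, 63 in Abcb11, 87 in Slc10a1 and 203 in Slc51b. The LRH-1 letters occur in 6.71% of 32851 RefSeq mouse promoters of this length, the half-site in 16.3%, and the inverted repeat in 0.0883%. Nr1h4 held a half-site on the other strand, and neither LRH-1 letters nor half-site were in the windows of Cyp27a1 and Abcc4. These matches describe letters and not bound sites.

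Levels between genes were compared per length, as TPM, counts per length of exons scaled to a common total, in the 3 WT livers. Slc10a1 stood highest with 830 ± 139 TPM (mean ± SD, n = 3), followed by Abcb11 with 651 ± 141 TPM, Cyp27a1 with 607 ± 58.7 TPM and Cyp8b1 with 592 ± 159 TPM. The ranges of neighbouring genes in this order overlapped among the 3 livers. Cyp7a1 followed with 265 ± 166 TPM, and its highest liver, at 452 TPM, passed the lowest liver of Cyp8b1, at 448 TPM. Abcc3 had 159 ± 65.1 TPM and Nr1h4, the receptor, 91.5 ± 8.39 TPM, without overlap between them. Nr0b2 followed at 40.5 ± 7.23 TPM. Slc51b with 2.40 ± 1.62 TPM and Abcc4 with 1.70 ± 0.67 TPM were the lowest, and their ranges overlapped. Slc51a, the partner without which Slc51b is not known to transport, had 0 or 1 count in each of the 12 libraries. The length chosen moves this order, since with the longest transcript of each gene Cyp27a1, at 494 TPM, and Abcb11, at 492 TPM, changed places. Nr1h4 had a mean of 125 TPM with that length, so its separation from Abcc3 holds for summed exon length only as far as shown here.

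The comparison of Mcl1Δhep with WT livers asks what loss of Mcl1 in hepatocytes does where Sting1 is intact. Mcl1Δhep livers had less RNA of Slc10a1, Cyp27a1 and Cyp8b1, the main uptake transporter and enzymes of both synthesis routes, and more of the basolateral exporter genes Abcc4 and Slc51b. Cyp7a1, Abcb11, Abcc3, Nr1h4 and Nr0b2 did not pass the test. The test was edgeR's quasi-likelihood test with Benjamini-Hochberg adjustment over all 15070 genes, in a model of all 12 libraries, with a gene called at an adjusted p under 0.05. It called 5 of the 10 genes, 2 higher and 3 lower, beside 20.2% of all tested genes, of which 10.8% were higher and 9.43% lower. Over the 10 genes the median log2 fold change was -0.59, beside -0.0049 over all genes. The groups did not overlap for 3 members that were lower and 1 that was higher, beside 17.1% and 16.2% of all genes. The p-values measure the spread between these livers. The count of 5 fell to 2 without Mcl1Δhep replicate 2, beside 8.09% of all genes called in that fit. It fell to 1 without WT replicate 2 or without WT replicate 3, beside 7.99% and 10.3% of all genes. In these last fits 1 of 10 members is near the share of all genes. No member was called when the share of small structured RNA was a covariate, beside 2.7% of all genes. With Y-linked expression as a covariate, which called 10.2% of all genes, only Slc10a1 of the 5 stayed called, and Abcc3 was newly called, lower. Without Mcl1Δhep replicate 3, the liver with pancreas and muscle RNA, 5 were called, of which 1 was higher, beside 16.7% of all genes.

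**Figure D1:**
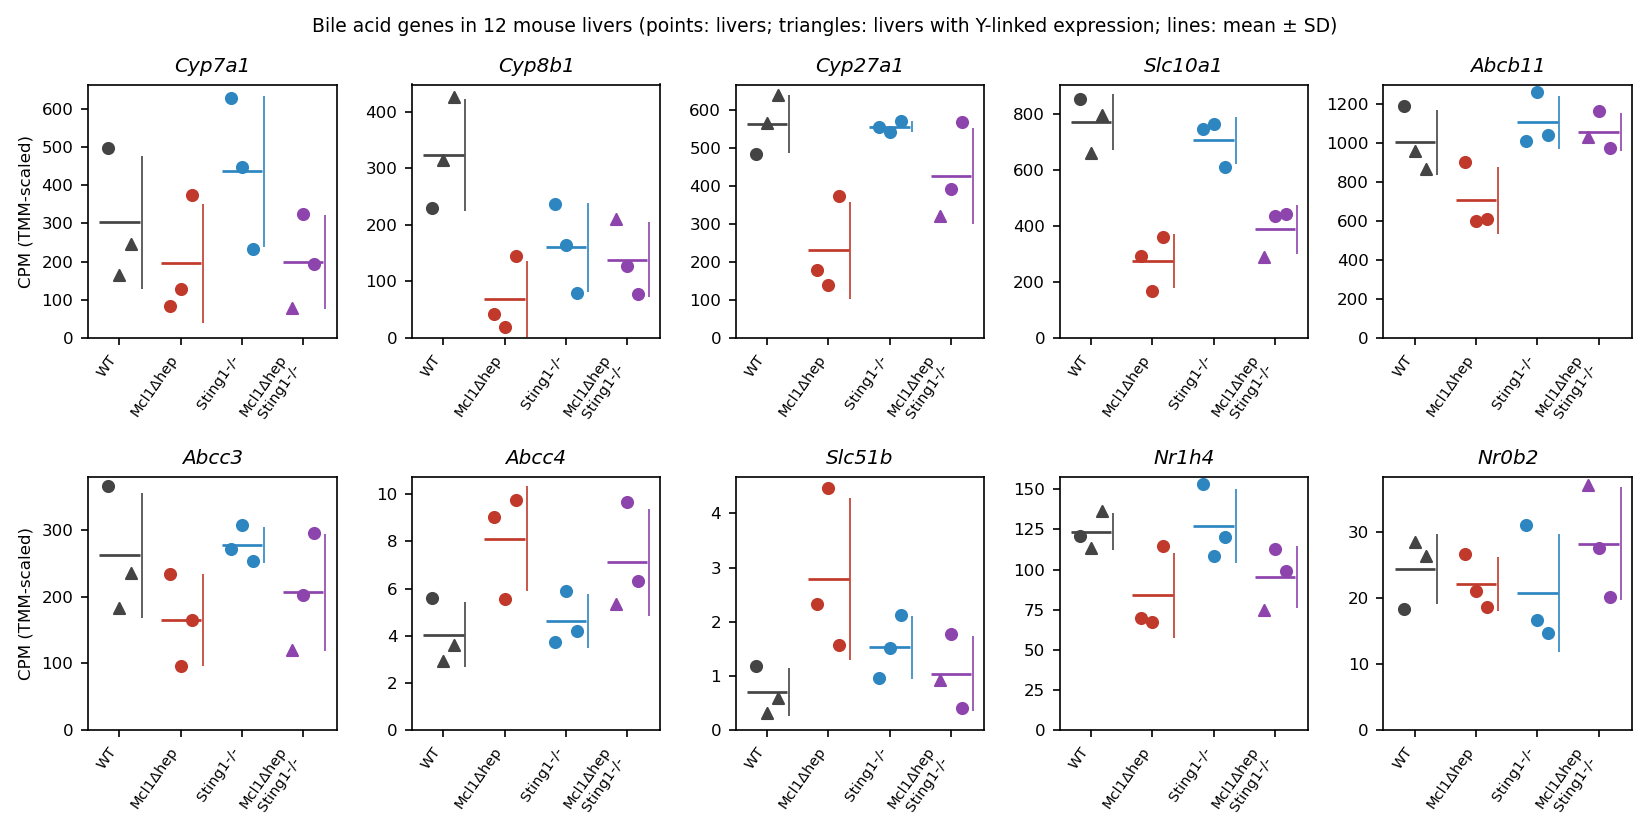
TMM-scaled CPM (vertical axes, starting at 0) of the 10 genes in 12 livers, by labelled genotype on the horizontal axes. Each point is a liver, triangles are the 3 livers with Y-linked expression, horizontal lines are means and vertical lines are ± SD (n = 3). Slc10a1 in all 3 Mcl1Δhep livers, at 169 to 359 CPM, sits below all WT livers, at 658 to 852 CPM.

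Cyp7a1 (ENSMUSG00000028240, chromosome 4, 6265612 to 6275633 of GRCm39, as for all genes below), the rate-limiting enzyme of the classical pathway, varied more between livers than between genotypes. It was at 498, 164 and 246 CPM in WT livers and at 84.6, 129 and 374 CPM in Mcl1Δhep livers. The ranges overlapped, with the highest Mcl1Δhep liver, replicate 3, above 2 of the 3 WT livers. The log2 fold change was -0.63 with a 95% interval of -2.00 to 0.75 (standard error, SE, of 0.63, edgeR adjusted p = 0.493), an interval that leaves room for a large fall as well as a rise.

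Cyp8b1 (ENSMUSG00000050445, chromosome 9, 121743422 to 121745371), which directs synthesis to cholic acid, was at 230, 314 and 427 CPM in WT livers. In Mcl1Δhep livers it was at 42.9, 19.0 and 145 CPM, all below WT. It fell by 2.23 on the log2 scale (SE 0.66, edgeR adjusted p = 0.0338), the largest change among the 10 genes in this comparison. The call was lost without Mcl1Δhep replicate 1 (adjusted p = 0.0696), Mcl1Δhep replicate 2 (0.0961), WT replicate 2 (0.0777) or WT replicate 3 (0.0941) in edgeR, and over all alternatives the adjusted p ran from 0.00509 to 0.348. The call was also lost with Y-linked expression as a covariate, where the log2 fold change was -1.63 (edgeR adjusted p = 0.151), and among only the livers without Y-linked expression, which leave 1 WT liver, where it was -1.75 (adjusted p = 0.348). It was lost further with the small RNA covariate (edgeR adjusted p = 0.253), with clock phase (0.0503) and with only the 2 groups fitted (0.0812).

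Cyp27a1 (ENSMUSG00000026170, chromosome 1, 74752314 to 74777056), the mitochondrial sterol hydroxylase of the alternative pathway, was at 485, 567 and 639 CPM in WT livers. It was at 178, 139 and 375 CPM in Mcl1Δhep livers, again below every WT liver. It fell by 1.29 on the log2 scale (SE 0.33, edgeR adjusted p = 0.0191). The call was lost in edgeR without Mcl1Δhep replicate 2 (adjusted p = 0.0690), WT replicate 2 (0.0556) or WT replicate 3 (0.0606), and the adjusted p ran from 0.000884 to 0.288 over all alternatives. It was also lost with Y-linked expression as a covariate (edgeR adjusted p = 0.0560), with small RNA (0.159), with only the 2 groups fitted (0.0731) and among the livers without Y-linked expression (0.288). In each of the 3 synthesis genes the highest Mcl1Δhep liver was replicate 3.

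Slc10a1 (ENSMUSG00000021135, chromosome 12, 80996372 to 81015479) encodes NTCP, the sodium-dependent carrier that brings conjugated bile acids into the hepatocyte. It was at 852, 658 and 796 CPM in WT livers and at 292, 169 and 359 CPM in Mcl1Δhep livers, with no overlap. It fell by 1.49 on the log2 scale (SE 0.26, edgeR adjusted p = 0.00443). The call was kept in all 12 fits that left out a library, with log2 fold changes of -1.74 to -1.24, and in 11 of 13 other alternatives. The exceptions were the small RNA covariate (adjusted p = 0.127) and the livers without Y-linked expression (adjusted p = 0.109 in edgeR), where the log2 fold changes were -1.19 and -1.65, within a range of adjusted p from 8.51e-07 to 0.127. Small structured RNA made up 0.172 to 0.369% of counts in WT livers and 0.283, 2.37 and 1.36% in Mcl1Δhep livers, and its part in the result was not tested beyond that covariate.

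Abcb11 (ENSMUSG00000027048, chromosome 2, 69068544 to 69173315), the bile salt export pump, was at 1187, 957 and 863 CPM in WT livers. It was at 902, 600 and 611 CPM in Mcl1Δhep livers, where replicate 1 lay within the WT range and the others below it. The log2 fold change was -0.51 with an interval of -0.94 to -0.08 (edgeR adjusted p = 0.0835), so that the pump did not pass the test. It passed in DESeq2 (adjusted p = 0.0438), in limma voom (0.0247) and without Mcl1Δhep replicate 1 (0.0101 in edgeR), fits that called 25.9%, 30.1% and 34.1% of all genes, and the adjusted p ran from 0.0101 to 0.841 over all alternatives.

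Among the basolateral exporters, Abcc4 (ENSMUSG00000032849, chromosome 14, 118720103 to 118943924), which encodes MRP4, was at 5.59, 2.94 and 3.63 CPM in WT livers. It was at 9.04, 5.57 and 9.74 CPM in Mcl1Δhep livers, of which replicate 2 lay just under the highest WT liver. It rose by 0.99 on the log2 scale (SE 0.31, edgeR adjusted p = 0.0427). The call held in 5 of 12 fits without a library. It was lost in edgeR when any of these was left out, Mcl1Δhep replicates 1 and 3 (adjusted p = 0.0706 and 0.112), WT replicates 2 and 3 (0.147 and 0.123), replicate 3 of the livers labelled Mcl1Δhep Sting1-/- (0.0509), or replicates 1 and 3 of those labelled Sting1-/- (0.0545 and 0.0583), within a range of 0.0110 to 0.510. With Y-linked expression as a covariate the log2 fold change was 0.59 and not called (edgeR adjusted p = 0.229), and among the livers without Y-linked expression it was 0.53 (adjusted p = 0.510). The call was lost too in limma voom (adjusted p = 0.0515), with the replicate block (0.0701), clock phase (0.0564) or small RNA (0.123) in edgeR, and with only the 2 groups fitted (0.0835).

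Slc51b (ENSMUSG00000053862, chromosome 9, 65319995 to 65330597), the smaller subunit of the organic solute transporter, was at 1.19, 0.33 and 0.59 CPM in WT livers. It was at 2.34, 4.47 and 1.58 CPM in Mcl1Δhep livers, all above WT. These values rest on 45, 11 and 18 counts in WT livers and on 113, 146 and 50 in Mcl1Δhep livers. The log2 fold change was 1.90 (SE 0.60, edgeR adjusted p = 0.0371). The call was lost in edgeR without Mcl1Δhep replicate 2 (adjusted p = 0.157), WT replicate 2 (0.125), WT replicate 3 (0.110) or replicate 2 of the livers labelled Sting1-/- (0.0531), within a range of 0.00419 to 0.476. It was also lost with Y-linked expression (edgeR adjusted p = 0.149), small RNA (0.339) or clock phase (0.0814) as a covariate, with the replicate block (0.0655), with only the 2 groups fitted (0.0636) and among the livers without Y-linked expression (0.476). Slc51a (ENSMUSG00000035699), its obligate partner, was too low to test, with 0 counts in all Mcl1Δhep livers, so the RNA of only 1 of the subunits was seen to rise. Abcc3 (ENSMUSG00000020865, chromosome 11, 94233874 to 94283823), which encodes MRP3, went the other way in value, with 366, 183 and 236 CPM in WT livers and 233, 96.0 and 165 CPM in Mcl1Δhep livers. Its groups overlapped, and its log2 fold change of -0.67 had an interval of -1.47 to 0.13 (edgeR adjusted p = 0.208). With Y-linked expression as a covariate Abcc3 was called lower, with a log2 fold change of -1.23 (SE 0.34, edgeR adjusted p = 0.0406), while with small RNA as a covariate the value was 0.043 (adjusted p = 0.970).

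Of the sensors, Nr1h4 (ENSMUSG00000047638, chromosome 10, 89289742 to 89369497) was at 121, 114 and 136 CPM in WT livers and at 69.7, 67.6 and 115 CPM in Mcl1Δhep livers. Replicates 1 and 2 were below all WT livers and replicate 3 was within the WT range. The log2 fold change was -0.56 (SE 0.23, edgeR adjusted p = 0.0998), and the gene was called only without Mcl1Δhep replicate 3, with a log2 fold change of -0.85 and an adjusted p of 0.0190 within a range of 0.0190 to 0.427. Nr0b2 (ENSMUSG00000037583, chromosome 4, 133280678 to 133283847), the FXR target gene that restrains Cyp7a1 and Cyp8b1, was at 18.4, 28.4 and 26.4 CPM in WT livers. It was at 26.6, 21.1 and 18.6 CPM in Mcl1Δhep livers, with almost the same range. Its log2 fold change was -0.14 with an interval of -0.79 to 0.51 (edgeR adjusted p = 0.768), which spans a modest fall and a modest rise.

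**Figure D2:**
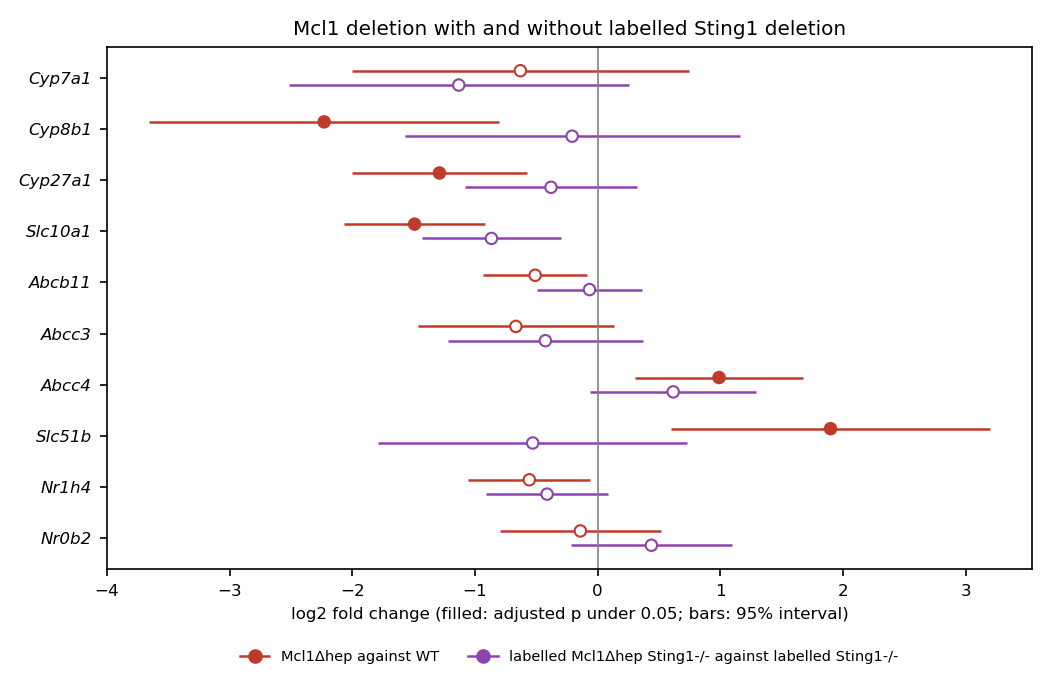
Log2 fold changes (horizontal axis) of the 10 genes (vertical axis) with Mcl1 deletion, in Mcl1Δhep against WT livers and in livers labelled Mcl1Δhep Sting1-/- against those labelled Sting1-/-. Filled points have an adjusted p under 0.05 and bars are 95% intervals. The 5 called genes, from Cyp8b1 at -2.23 to Slc51b at 1.90, are all in the first comparison, and 8 of 10 values are below 0 in each.

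The same comparison was counted over longer lists of these pathways. The lists hold the members too, so their counts and medians partly repeat the results above. Called members among them are Cyp8b1 and Cyp27a1 in synthesis, Slc10a1 in uptake, and Abcc4 and Slc51b in basolateral export. Of 20 tested genes of bile acid synthesis, 8 were lower and 0 higher in Mcl1Δhep livers (13 at an unadjusted p under 0.05, beside 36.9% of all tested genes), with a median log2 fold change of -0.59. Beside Cyp8b1, those with the largest falls at a mean of at least 1 CPM were Cyp7b1, the oxysterol hydroxylase of the alternative pathway, with a log2 fold change of -5.27 (SE 1.05, edgeR adjusted p = 0.00726), and Cyp27a1. Cyp7b1 is known as a male-predominant gene of mouse liver. It was at 678 and 407 CPM in the WT livers with Y-linked expression and at 32.0 CPM in the WT liver without, against 7.86, 6.30 and 14.6 CPM in Mcl1Δhep livers, so that the WT liver without Y-linked expression lay above all 3 of them and the rest of the difference cannot be told apart from Y-linked expression.

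Of 5 tested basolateral uptake carriers, 4 were lower and 0 higher, with a median log2 fold change of -1.40. The organic anion transporters Slco1a1 and Slco1b2 fell beside Slc10a1, with log2 fold changes of -3.41 (SE 0.92, edgeR adjusted p = 0.0245) and -1.40 (SE 0.37, adjusted p = 0.0227). Slco1a1, also known as male-predominant, was at 148 CPM in the WT liver without Y-linked expression and at 778 and 723 CPM in the others. Slco1b2 showed less of this, with 1398 CPM in the former and 1793 and 1744 CPM in the latter, against 420, 416 and 1033 CPM in Mcl1Δhep livers. All 3 carriers were lower in every Mcl1Δhep liver than in any WT liver.

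Of 10 tested canalicular exporters, 3 were lower and 0 higher (5 at an unadjusted p under 0.05, beside the 36.9% of all genes), with a median log2 fold change of -0.47. Abcg8, a subunit of the sterol exporter, fell by 1.38 on the log2 scale, Abcg2 by 1.25, and Abcc2 (MRP2, the exporter of conjugated bilirubin) by 0.73. Their adjusted p-values from edgeR were 0.00576, 0.0384 and 0.0241. Abcg2 overlapped between groups, with 46.0 CPM in the WT liver without Y-linked expression against 35.6 to 57.9 CPM in Mcl1Δhep livers. The basolateral exporters were the 1 list with a median above 0, at 1.02, with 4 of 6 tested genes higher and 1 lower. After Slc51b, the genes with the largest rise were Abcc5 with a log2 fold change of 1.14 (adjusted p = 0.0100) and Abcc1 with 1.05 (edgeR adjusted p = 0.00761). Abcc1 was at 9.48, 6.85 and 6.74 CPM in Mcl1Δhep livers and at 3.80, 3.17 and 4.13 CPM in WT livers, without overlap. Abcc6 fell by 0.81 (edgeR adjusted p = 0.0199), from a mean of 190 CPM in WT livers to 109 CPM in Mcl1Δhep livers. Abcc3, with means of 262 and 165 CPM, was not called. The 4 genes that rose were far less abundant, with means of 0.70 to 4.05 CPM in WT livers. The median of this list therefore does not describe the amount of exporter RNA.

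Of 17 tested receptors and regulators, 6 were lower and 0 higher (10 at an unadjusted p under 0.05, beside the same 36.9%), with a median log2 fold change of -0.48. The hepatocyte transcription factor Onecut1 fell by 2.31 (edgeR adjusted p = 0.00483) and Klb, the coreceptor for the intestinal hormone that represses Cyp7a1, by 1.13 (adjusted p = 0.0175). Onecut1 was at 59.2 to 75.4 CPM in WT livers and at 7.22 to 23.6 CPM in Mcl1Δhep livers. It was also low where Mcl1 is intact, at 13.7 to 19.8 CPM in the livers labelled Sting1-/-. In those labelled Mcl1Δhep Sting1-/- it was at 11.5 to 25.4 CPM, so its level did not follow Mcl1 alone. Nr5a2, the LRH-1 whose letters are shown for Cyp8b1 and Nr0b2, was named after its values were seen. It fell by 0.57 (edgeR adjusted p = 0.0127), with 47.6 to 53.0 CPM in Mcl1Δhep livers and 68.8 to 79.1 CPM in WT livers. Of the genes with these letters, Cyp8b1 was called lower and Nr0b2 was not called (log2 fold change of -0.14). The part of Nr5a2 in either was not tested. Of 12 tested genes of bile acid detoxification, 2 were lower and 0 higher (3 at an unadjusted p under 0.05, a smaller share than the 36.9% of all genes), namely the sulfotransferase gene Sult2a8 with a log2 fold change of -2.05 (adjusted p = 0.0266) and the glucuronosyltransferase gene Ugt2b1 with -1.86 (edgeR adjusted p = 0.0113). Both differed with Y-linked expression among WT livers. Sult2a8 was at 483 CPM in the WT liver without Y-linked expression and at 1046 and 930 CPM in the others. In Mcl1Δhep livers it was at 89.0, 76.8 and 427 CPM. Ugt2b1 was at 305 CPM in the WT liver without Y-linked expression, at 1115 and 927 CPM in the others, and at 162 to 299 CPM in Mcl1Δhep livers. Scaling to hepatocyte markers raised the median of all genes to 0.16, and on that scale the median of the 10 chosen genes was -0.43 and the same number, 5, was called.

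**Figure D3:**
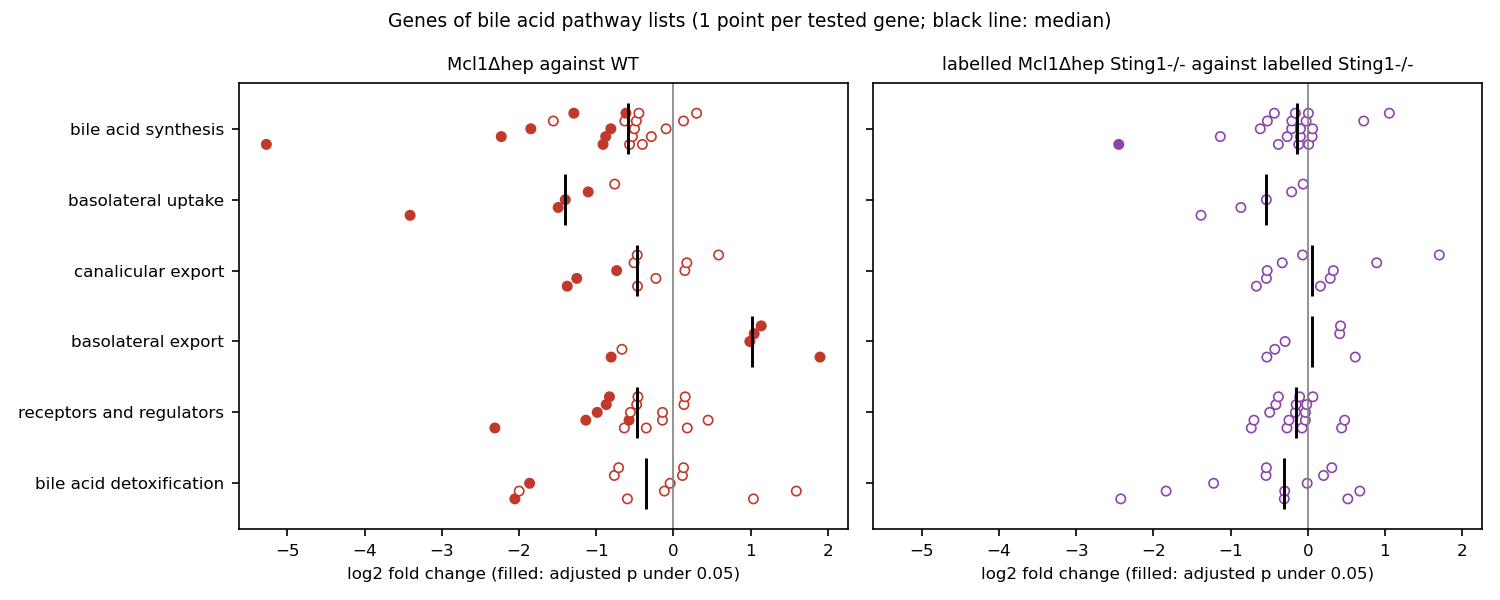
Log2 fold change (horizontal axis) of each tested gene of 6 bile acid pathway lists (vertical axis), with Mcl1Δhep against WT livers on the left and livers labelled Mcl1Δhep Sting1-/- against those labelled Sting1-/- on the right. Filled points have an adjusted p under 0.05 and black lines are medians. On the left, 4 of 6 basolateral exporters are filled above 0 and 4 of 5 uptake carriers below 0, and on the right 1 gene is filled.

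Other cell types moved in the same comparison. In Mcl1Δhep against WT livers, 5 of 7 tested stellate cell and fibroblast markers, 4 of 6 leukocyte markers, 4 of 7 Kupffer cell and macrophage markers and 2 of 8 cholangiocyte markers were higher, and none of these was lower. Of all tested genes, 10.8% were higher and 9.43% lower. Des, on the stellate list, was at 7.61, 9.45 and 69.9 CPM in Mcl1Δhep livers and at 6.78, 4.45 and 3.86 CPM in WT livers. Its highest value was in replicate 3, the liver with skeletal muscle RNA, and the part of that RNA was not tested. Summed stellate cell markers came to 658 to 758 CPM in Mcl1Δhep livers and to 274 to 476 CPM in WT livers. Summed over 10 cholangiocyte markers the level was 84.8 to 131 CPM against 73.2 to 84.1 CPM, but without Slc10a2 it was 40.4 to 69.3 CPM against 45.2 to 66.6 CPM. That smaller sum was mostly Spp1, at 42.6, 31.2 and 56.5 CPM against 55.7, 42.4 and 38.4 CPM, so it says little of the other markers. Of the 8 tested markers 4 had log2 fold changes above 0 and 4 below. The 2 called were Slc10a2 and Muc1, the latter at 0.79, 1.01 and 1.58 CPM against 0.30 to 0.47 CPM in WT livers (log2 fold change of 1.47, edgeR adjusted p = 0.0176). Abcc1, Abcc4, Abcc5 and Slc51b are known from cells other than hepatocytes too, and the part of those cells in the rise was not tested. Of 8 intestinal markers 3 were tested and 1 was higher, Apoa4, an apolipoprotein gene that liver also expresses, at 810, 2831 and 578 CPM against 109 to 265 CPM (log2 fold change of 2.81, edgeR adjusted p = 0.00963). Fabp2 and Vil1 did not pass, Cdx2, Sis, Fgf15 and Alpi had 0 counts in all 12 libraries, and Muc2 had counts in 1 library only. Of 13 clock genes, 2 were lower in Mcl1Δhep livers, beside 9.43% of all tested genes, and that count is not read as a result about the clock. Dbp was at 50.5, 54.4 and 142 CPM in Mcl1Δhep livers against 142 to 175 CPM in WT livers. Cyp7a1 is known to follow the day and the collection time of the livers is not given. The part of clock phase was therefore not tested beyond a covariate, with which 2 members were called, beside 17.9% of all genes.

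The comparison of livers labelled Mcl1Δhep Sting1-/- with those labelled Sting1-/- asks for the effect of Mcl1 loss where Sting1 is absent, and shares no library with the first. None of the 10 genes was called by edgeR, beside 0.803% of all tested genes, 1 (Slc10a1) had an unadjusted p under 0.05 beside 11.3% of genes, and DESeq2, which called 3.16% of all genes, called the same gene alone. It was also the 1 member whose groups did not overlap, beside 10.8% of all genes without overlap in that direction. For the unadjusted p and the overlap, 1 of 10 members is no more than the share of all genes. Slc10a1 was at 745, 762 and 608 CPM in the livers labelled Sting1-/- and at 287, 433 and 440 CPM in those labelled Mcl1Δhep Sting1-/-. Its log2 fold change was -0.87 with an interval of -1.43 to -0.30 (edgeR adjusted p = 0.181 and 0.0381 from DESeq2, within a range of 0.0381 to 0.781 over all alternatives).

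The other synthesis and transport genes overlapped between these groups. Cyp7a1 was at 628, 448 and 233 CPM in the livers labelled Sting1-/- and at 78.0, 325 and 194 CPM in those labelled Mcl1Δhep Sting1-/-, with a log2 fold change of -1.13 and an interval of -2.52 to 0.25. Cyp8b1 was at 238, 164 and 79.9 CPM against 210, 127 and 78.7 CPM, nearly the same values, with a log2 fold change of -0.21 and an interval of -1.57 to 1.16. Cyp27a1 was tight in the livers labelled Sting1-/-, at 542 to 571 CPM, and spread from 322 to 568 CPM in those labelled Mcl1Δhep Sting1-/-. Abcb11 was at 1011, 1261 and 1039 CPM against 1028, 1163 and 972 CPM, with a log2 fold change of -0.07 and an interval of -0.49 to 0.36, the narrowest of the 10.

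Of the exporters, Abcc4 was at 3.75, 5.92 and 4.20 CPM in the livers labelled Sting1-/- and at 5.35, 9.65 and 6.32 CPM in those labelled Mcl1Δhep Sting1-/-, a log2 fold change of 0.62 with an interval of -0.06 to 1.29. Slc51b was at 0.96, 1.51 and 2.12 CPM against 0.94, 1.78 and 0.41 CPM, a log2 fold change of -0.53 with an interval of -1.79 to 0.73. Abcc3, Nr1h4 and Nr0b2 had log2 fold changes of -0.43, -0.41 and 0.44, each with an interval that includes 0. In the pathway lists, the 1 gene called was Cyp46a1, a cholesterol hydroxylase best known from brain, which was lower (0.0334 to 0.246 CPM against 0.698 to 1.59 CPM, edgeR adjusted p = 0.0473).

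Whether the effect of Mcl1 loss differed between the Sting1 backgrounds was tested as an interaction. No member and no other gene was called in edgeR (2165 of all tested genes, 14.4%, had an unadjusted p under 0.05, and DESeq2 called 172 genes and limma voom 540, none of them a member). Without Mcl1Δhep replicate 1 edgeR called 1574 genes (10.2%) and without WT replicate 1 it called 88, in both cases no member. At unadjusted p, 2 of the 10 members were under 0.05. For Slc51b, the change on the labelled Sting1-/- background minus that with Sting1 intact was -2.43 on the log2 scale (interval of the difference -4.24 to -0.62, edgeR adjusted p = 0.281). For Cyp8b1 the difference was 2.02 (interval 0.07 to 3.97, edgeR adjusted p = 0.340). For Slc10a1 it was 0.63 (interval -0.17 to 1.42), so a fall called on 1 background and not on the other was not shown to differ between them.

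Setting the livers labelled Mcl1Δhep Sting1-/- directly against Mcl1Δhep livers gave no called gene in edgeR, a member or any other (0%), while 20.6% of tested genes had an unadjusted p under 0.05 and DESeq2 called 671 genes, no member among them. The absence of edgeR calls turned on 1 library and on the test. Without Mcl1Δhep replicate 1 edgeR called 3108 genes (20.2%), and limma voom called 1694 (11.2%) with all libraries. At unadjusted p, 3 members were under 0.05. Abcb11 was higher in all 3 livers labelled Mcl1Δhep Sting1-/-, at 1028, 1163 and 972 CPM, than in the Mcl1Δhep livers, at 902, 600 and 611 CPM, a log2 fold change of 0.58 (edgeR adjusted p = 0.157), and was the 1 member without overlap, beside 8.97% of all genes in that direction. It passed in limma voom (adjusted p = 0.0258) and without Mcl1Δhep replicate 1 (0.0112 in edgeR), within a range of 0.0112 to 0.509, and in both fits 1 of 10 members is no more than the share of all genes called. Cyp27a1 had a log2 fold change of 0.89 (adjusted p = 0.172) and Slc51b of -1.37 (edgeR adjusted p = 0.203), both with overlap between groups. Slc10a1 had a log2 fold change of 0.50 with an interval of -0.06 to 1.07, and Cyp7a1 of 0.02 with an interval of -1.35 to 1.39.

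Against WT, which is shared with the first comparison, the livers labelled Mcl1Δhep Sting1-/- had no called member in edgeR, beside 1.82% of all genes, and 2 members (Slc10a1 and Abcc4) had an unadjusted p under 0.05 beside 14.4% of genes. Slc10a1, Cyp8b1 and Nr1h4 were lower in all 3 of these livers than in any WT liver, 3 of 10 members beside 11.3% of all genes. The margin was narrow for Nr1h4, with at most 112.9 CPM against at least 113.7 CPM in WT livers (edgeR adjusted p = 0.513). For Cyp8b1 it was at most 210 CPM against at least 230 CPM (edgeR adjusted p = 0.421). The log2 fold change of Slc10a1 was -0.99 (edgeR adjusted p = 0.0876, 0.00688 from DESeq2 and 0.0362 from limma voom), and without Mcl1Δhep replicate 2 the adjusted p was 0.0332, within a range of 0.00688 to 0.709. The 3 fits that called it called 4.72%, 5.06% and 1.84% of all genes. The livers labelled Sting1-/- had no called member against WT, nor any called gene in edgeR (0%, with 5.45% at an unadjusted p under 0.05, no member among them, 49 genes but no member by DESeq2, and 22 genes but no member without WT replicate 1). The widest values there were log2 fold changes of 1.06 for Slc51b and -1.01 for Cyp8b1, with intervals of -0.24 to 2.36 and -2.39 to 0.37.

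The balance of Cyp8b1 to Cyp7a1 differed between livers in a way the genotype did not follow. Per length, Cyp8b1 was 5.77, 4.09 and 3.71 times Cyp7a1 in replicate 1 of the livers labelled Mcl1Δhep Sting1-/-, WT replicate 2 and WT replicate 3, which are the 3 livers with Y-linked expression. In the other 9 livers it was 0.316 to 1.08 times Cyp7a1. In all of those but Mcl1Δhep replicate 2, the ratio stayed between 0.734 and 1.08 while Cyp7a1 itself ranged from 83.9 to 511 TPM. This was noticed in the data and is given as a description, with no test.

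**Figure D4:**
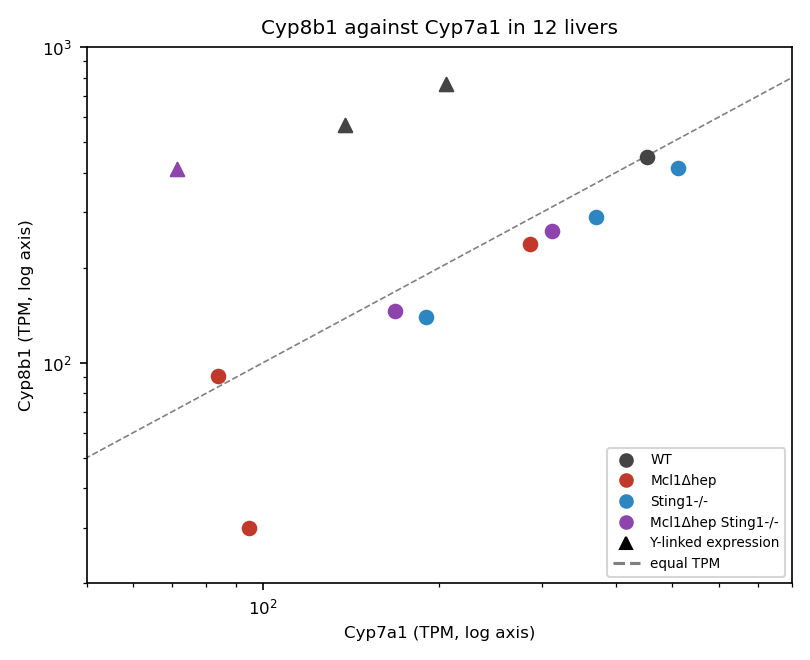
Cyp8b1 against Cyp7a1 in TPM (both axes logarithmic), 1 point per liver, coloured by labelled genotype, with triangles for the livers with Y-linked expression and a dashed line at equal TPM. The 3 triangles lie above the line, at ratios of 3.71 to 5.77, and Mcl1Δhep replicate 2 lies farthest below it, at 0.316.

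The genes whose log2 CPM ran most like each member over the 12 livers, outside the pathway lists, are given with Pearson's r as a description, since points share genotype, library and depth. For Slc10a1 they were Asgr2, a subunit of the asialoglycoprotein receptor of hepatocytes (r = 0.98), Epm2a (0.98) and Ngef (0.97). For Cyp27a1 they were the cytochrome P450 genes Cyp2d13 (0.99) and Cyp2e1 (0.98) and the sorbitol dehydrogenase gene Sord (0.98). For Cyp8b1 they were Car3 (0.96), Fam3a (0.96) and Aldoc (0.95), for Nr1h4 Teddm2 (0.96) and Cyp2c54 (0.92), and for Cyp7a1 Fibin (0.93), Sbsn (0.93) and Tbc1d10a (0.91). For Abcb11 they were Kank2 (0.96), Ptbp3 (0.94) and Wrn (0.94), and for Abcc3 Tnks1bp1 (0.96), Glb1 (0.95) and Gpr182 (0.95). The low genes followed Zfp991 (0.94), Rab19 (0.94) and the fatty acid carrier Cd36 (0.92) for Abcc4, and Cacnb2 (0.93), Bag2 (0.90) and Cdpf1 (0.89) for Slc51b. For Nr0b2 they were Ccdc125 (0.93), Lars1 (0.89) and Gm49380 (0.89).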

How the data were processed

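For each library the authors deposited unnormalized counts of reads on Ensembl genes. The submitters' processing notes name STAR, featureCounts and GRCm39 without versions, and the annotation release and use of strand are not given in the sources used here, so reads of overlapping genes may be shared. The extraction kit is given differently in labels and paper. The main test on these counts was the quasi-likelihood F test of edgeR 4.0.16 in R 4.3.3 (TMM factors, filterByExpr on genotype, a prior count of 2, all 12 libraries, no covariate, common dispersion 0.0699), with Benjamini-Hochberg adjustment over 15070 tested genes and a threshold of 0.05. TPM used summed exon lengths of GENCODE vM39 (GRCm39), which holds 39533 of 40551 identifiers. Alternatives included DESeq2 1.42.0, limma 3.58.1 (voom), other scalings and filters, covariates, a block for the replicate number and the omission of single libraries. Intervals are 95% and rest on 3 livers per group at 28826367 to 45266387 counts per library. Libraries of a genotype were checked for duplicates and differed by a chi-square of at least 40.1 per degree of freedom. The default fits of edgeR, limma voom and DESeq2 were tested on simulated counts. The alternatives with covariates, a block, other scalings or filters, or fewer libraries were not. Named are all 10 members, up to 3 called genes with the largest rise and 3 with the largest fall per pathway list at a mean of at least 1 CPM (in Mcl1Δhep against WT, and in the livers labelled Mcl1Δhep Sting1-/- against those labelled Sting1-/-), Slc51a, and the 3 nearest patterns per member, except that some genes this rule names are not reported here. Cyp46a1, Nr5a2, Slc10a2 and the markers given by value were named with their values known. The members and lists were chosen with earlier results of these data known. Figures used Python 3.11.15 and matplotlib 3.10.9.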

Additional observations from a re-analysis of the deposited data

Results flagged for a closer look

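Markers of tissue other than liver appeared in 1 library. Mcl1Δhep replicate 3 held 6428.58 summed CPM of 7 acinar pancreas markers and 1389.56 summed CPM of 7 skeletal muscle markers, above the control livers, where the WT libraries reached at most 0.0297 and 7.98. Fits without this library gave log2 fold changes of -1.74 for Slc10a1, which stayed called.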

How the results depend on the processing

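With 3 livers per group, calls near the threshold turned on single libraries, while directions of called members held. Mcl1Δhep against WT called 5 members, and 3 with the replicate block, 2 with Y-linked expression as a covariate (Slc10a1 of the 5, and Abcc3, newly called lower), 2 with clock phase, 0 with small RNA share (0 edgeR calls among members, 407 genes in all), 1 with only the 2 groups fitted, 0 among the libraries without Y-linked expression (an alternative chosen after seeing the data, with 1 WT liver assumed to vary like the others, and 4 genes called in all), and 1 to 5 leaving out a library. In this comparison the main fit called 20.2% of all genes. The replicate block called 17.2%, the Y-linked covariate 10.2%, clock phase 17.9% and the fit of only the 2 groups 8.15%. Fits that left out a library called 7.99% to 34.1%. Cause was not tested. Replicate numbers did not pair the samples (correlations of deviations of -0.54 to 0.25), and the replicate block is given for its count of 3 alone. The livers labelled Mcl1Δhep Sting1-/- against those labelled Sting1-/- had 1 member called with DESeq2 against 0, against Mcl1Δhep 1 with voom and 0 to 1 leaving out a library, and against WT 1 with DESeq2, 1 with voom and 0 to 1 leaving out a library. With the longest transcript, mean TPM in WT livers was 494 for Cyp27a1, 492 for Abcb11, 1070 for Slc10a1, 30.2 for Nr0b2 and 125 for Nr1h4. Members reach depths at which counting error is small except Slc51b.

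Log2 fold changes that changed sign were all of uncalled members. In Mcl1Δhep against WT, Nr0b2 was 0.29 with the Y-linked covariate, 0.11 with small RNA, 0.024 with hepatocyte scaling and 0.26 without Y-linked livers, and Abcc3 0.043 with small RNA. In labelled Mcl1Δhep Sting1-/- against Sting1-/-, Abcb11 was 0.0088 with the Y-linked covariate and 0.099 with hepatocyte scaling, and Cyp27a1 0.093 with clock phase. Leaving out a library, Cyp8b1 ran from -0.64 to 0.19 and Abcb11 from -0.14 to 0.039. Against Mcl1Δhep, Abcc4 was 0.0066 with the Y-linked covariate and 0.051 with voom, Abcc3 -0.0017 with small RNA, and Cyp7a1 -0.0034 with a 1 CPM filter. Leaving out a library, Cyp7a1 ran from -0.52 to 0.90 and Abcc3 from -0.029 to 0.66. In labelled Sting1-/- against WT, the Y-linked covariate gave Cyp7a1 -0.35, Abcc3 -0.49, Abcc4 -0.21, Nr0b2 0.20 and Nr1h4 -0.12. The livers without Y-linked expression gave Cyp7a1 -0.19, Cyp27a1 0.20, Abcb11 -0.10, Abcc3 -0.40, Abcc4 -0.27 and Nr0b2 0.18. Small RNA gave Slc10a1 0.094 and Nr1h4 -0.040, and the replicate block Cyp27a1 0.0013. Leaving out a library, Nr1h4 ran from -0.11 to 0.15, Abcc4 from -0.028 to 0.49, Abcc3 from -0.12 to 0.40 and Cyp27a1 from -0.12 to 0.081. In labelled Mcl1Δhep Sting1-/- against WT, clock phase gave Cyp7a1 0.40, Cyp27a1 0.092, Abcb11 -0.10, Nr0b2 -0.095 and Nr1h4 0.035, small RNA Abcc3 0.042, and livers without Y-linked expression Abcb11 -0.15 and Slc51b -0.10. Leaving out a library, Nr0b2 ran from -0.035 to 0.42, Abcb11 from -0.024 to 0.21 and Slc51b from -0.081 to 1.11. In the interaction, Cyp7a1 was 0.68 with the Y-linked covariate, 0.60 without Y-linked livers and 0.029 with clock phase, Abcc4 0.22 and 0.25 with the first 2 of these, Nr0b2 -0.083 and -0.069, and small RNA gave Abcb11 -0.065 and Abcc3 -0.64. Leaving out a library, Abcc3 ran from -0.10 to 0.58 and Cyp7a1 from -1.06 to 0.37. Over all members and the alternatives other than leaving out a library, 696 values kept their direction and side of the threshold. Of the rest, 43 changed sign, 24 lost a call and 7 gained a call. Leaving out a library, 677 were kept, 21 changed sign, 18 lost a call and 4 gained a call. Values of members that stayed uncalled count as kept.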

Other observations

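Slc10a2, the apical sodium-dependent bile acid transporter known from ileum and bile duct cells, was listed here as a cholangiocyte marker and was singled out after its values were seen. It was at 34.2, 90.4 and 58.3 CPM in Mcl1Δhep livers and at 17.5, 24.0 and 29.1 CPM in WT livers, without overlap. Its log2 fold change was 1.37 (SE 0.29, edgeR quasi-likelihood adjusted p = 0.00930). It was at 53.2, 50.1 and 52.9 CPM in the livers labelled Mcl1Δhep Sting1-/- and at 21.3, 18.7 and 24.1 CPM in those labelled Sting1-/-, a log2 fold change of 1.28 (edgeR adjusted p = 0.0729). The other 9 cholangiocyte markers summed to 40.4 to 69.3 CPM in Mcl1Δhep livers and to 45.2 to 66.6 CPM in WT livers, and of these only Muc1 was called, higher (log2 fold change of 1.47, edgeR adjusted p = 0.0176). The sum of these 9 was mostly Spp1, at 31.2 to 56.5 CPM in Mcl1Δhep livers and 38.4 to 55.7 CPM in WT livers.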
